A study of Mus musculus with 6 samples.

Results

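The 10 genes *Cbs*, *Cth*, *Cdo1*, *Csad*, *Ado*, *Mpst*, *Sqor*, *Ethe1*, *Tst* and *Suox* encode the enzymes that make cysteine, break it down and release its sulfur as taurine, sulfide, sulfite and sulfate. They were chosen by gene symbol from the 35523 genes that had a transcript in the RNA-Seq data. Bulk RNA-Seq was performed on the whole forebrain of 3 *Slc13a4*+/- mice (labelled Nas2Del +/- Het, Nas2Del_Het_1024, Nas2Del_Het_1025 and Nas2Del_Het_1027) and 3 wild-type mice (Nas2Del_WT_1016, Nas2Del_WT_1018 and Nas2Del_WT_1026), all C57BL/6 and all at postnatal day 20. Within a genotype, values of single mice follow the order of these labels. The *Slc13a4*+/- mice lack one allele of this sulfate transporter in every cell. The transporter itself is known mainly from the choroid plexus and the pia mater, whereas the libraries hold the RNA of every cell type of the forebrain. In bulk tissue, fewer cells of a type and less RNA per cell cannot be told apart.

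Cysteine carries the sulfur that ends as sulfate when it is broken down inside the cell. In the transsulfuration pathway homocysteine is turned into cysteine. One route then oxidises cysteine to cysteine sulfinate, which can be decarboxylated to hypotaurine and end as taurine, a very abundant free amino acid of the developing brain. Taurine is not the only fate of cysteine sulfinate, since aminotransferases also act on it. Another route passes through hydrogen sulfide and persulfides in mitochondria and ends with the oxidation of sulfite to sulfate. The comparison of the genotypes asks whether the transcripts of these endogenous sources of sulfate differed in mice with less transporter.

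No gene of the set passed the test between the genotypes, and most differences were a few percent. All 10 genes were measured well enough to be tested, with 226 to 7726 counts per gene and mouse. Expected counts, Salmon's estimates from the reads, were summed per gene. By edgeR's quasi-likelihood test none of the 10 had a Benjamini-Hochberg adjusted p under 0.1, where 0.00585% of the 17096 genes tested were called (1 gene). The DESeq2 Wald test, with the average transcript length of a gene in each mouse as an offset, called none of them either, where 0.487% of 17659 genes were called. The adjusted p of the 10 genes ranged from 0.530 to 0.937 in edgeR and from 0.450 to 0.998 in DESeq2.

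Of the 10 log2 fold changes (*Slc13a4*+/- over wild-type), 7 lay below 0 and 3 above it (*Cth*, *Csad* and *Suox*), with a median of -0.054 against -0.005 over all genes tested, of which 52.2% lay below 0. *Ado* and *Sqor* had the smallest p-values. They were the 2 members with an unadjusted p under 0.05 in edgeR and also in DESeq2 with length offsets, both lower in *Slc13a4*+/- mice, where 4.17% of all genes tested were lower and 4.98% were higher by that rule in edgeR. They were also the 2 members whose normalised counts (CPM, counts scaled to the library total with TMM factors) did not overlap between the genotypes, both lower, where 7.7% of all genes tested were lower without overlap. The 2 of 10 members were not tested against these shares. The count of members with an unadjusted p under 0.05 was 1 in DESeq2 without offsets and in edgeR with a filter of 1 CPM, and 0 in edgeR on coding transcripts, without a count filter and with the run of animal numbers as covariate (*Ado* then had a log2 fold change of -0.050). With each mouse left out in turn, the quasi-likelihood test called no member. An unadjusted p under 0.05 was then found for *Cdo1* without Nas2Del_Het_1024 (adjusted p = 0.665 in edgeR) and for *Ado* without Nas2Del_WT_1026 (adjusted p = 0.147 in edgeR), and for no member without any of the other 4 mice.

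**Figure D1:**
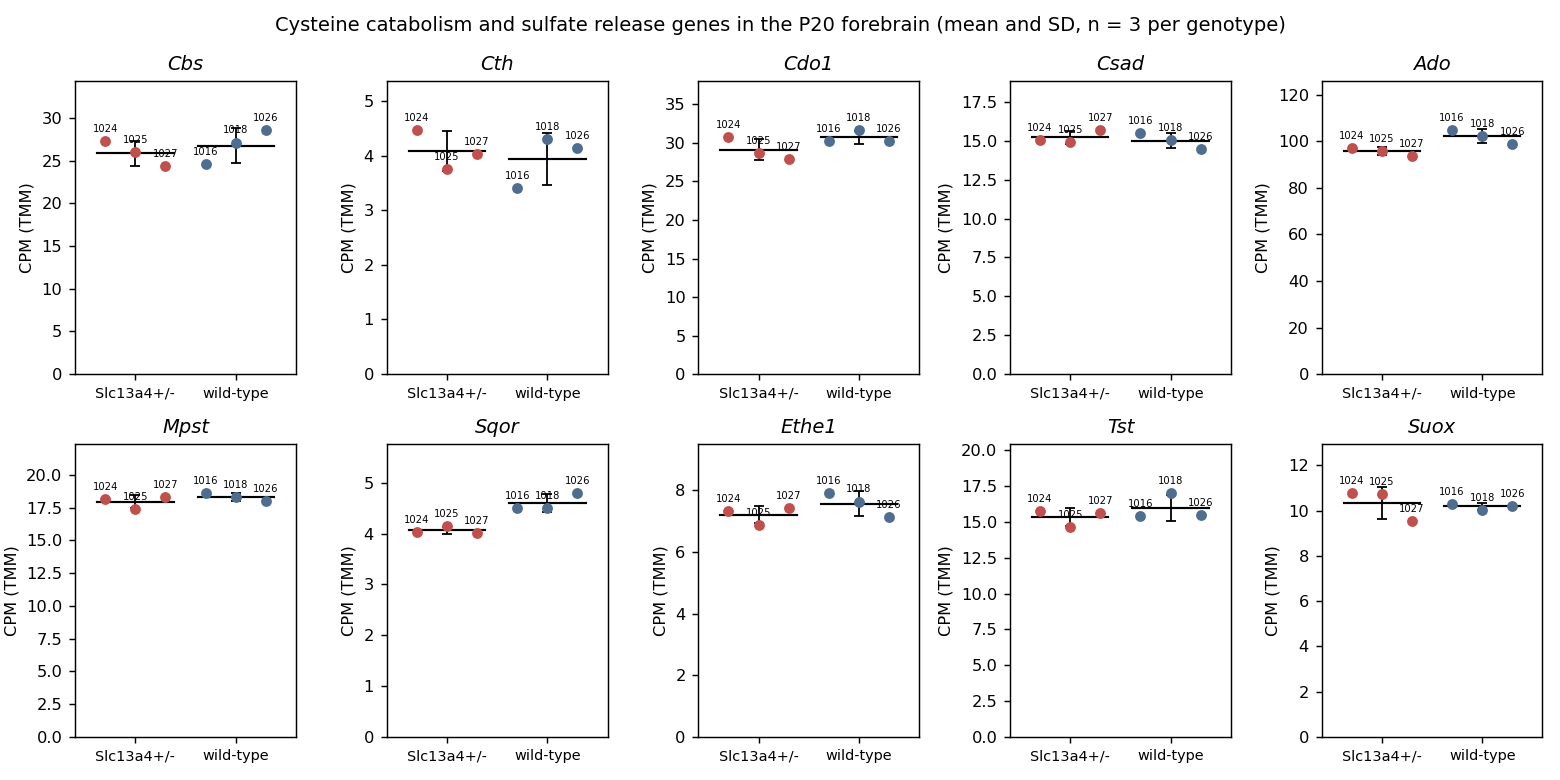
Normalised counts of the 10 genes in each mouse (vertical axes in CPM with TMM scaling, each starting at 0, *Slc13a4*+/- mice left and wild-type mice right). Points are mice with the number that ends their label, the long bar is the mean and the error bar the SD of 3 mice. The groups overlap in 8 panels, and all *Slc13a4*+/- points lie below all wild-type points for *Ado* and *Sqor*.

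The targeted gene was read first as a check of the labels. *Slc13a4* had 5.60, 6.57 and 5.41 CPM in *Slc13a4*+/- mice, against 10.4, 9.36 and 8.23 CPM in wild-type mice. Every *Slc13a4*+/- mouse was thus below every wild-type mouse (log2 fold change -0.67, SE 0.11). The difference was called by DESeq2 (adjusted p = 0.0024) and not by edgeR (adjusted p = 0.499). Summed choroid plexus markers were lower too, with 387 to 450 CPM in *Slc13a4*+/- mice and 468 to 474 CPM in wild-type mice. Their part in the *Slc13a4* difference was not tested. Totals were 69260309 to 78070813 estimated counts in *Slc13a4*+/- mice and 60340337 to 80410582 in wild-type mice. Nas2Del_WT_1026 lay farthest out on the leading axis of a principal component analysis of 500 variable genes, an axis with 53.5% of the variance. Wild-type mice lay at both ends of this axis (-9.5, -5.2 and 16.6), with the *Slc13a4*+/- mice (1.9, -6.7 and 2.9) between the ends. The axis thus did not separate the genotypes. Only Nas2Del_WT_1016 had more than background counts of the Y-linked *Ddx3y* (105 CPM, at most 0.033 CPM in the other 5 mice), so the mice were not of one sex. Since this is a wild-type mouse, sex was not balanced between the genotypes, and its part in their differences was not tested.

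The levels of the 10 genes were compared with each other per length, as TPM, a share of all transcripts after division by length. *Ado* averaged 45.5 ± 0.45 TPM in *Slc13a4*+/- mice and 47.8 ± 1.08 TPM in wild-type mice (SD, n = 3 each), and *Cdo1* averaged 43.2 ± 1.69 TPM in *Slc13a4*+/- mice and 45.2 ± 2.44 TPM in wild-type mice. These were the highest levels of the set, at percentiles 74.6 (*Ado*) and 73.5 (*Cdo1*) among all tested genes. The sulfurtransferases followed: *Mpst* averaged 35.4 ± 2.61 TPM in *Slc13a4*+/- mice and 34.9 ± 0.65 TPM in wild-type mice, and *Tst* averaged 32.2 ± 1.23 TPM in *Slc13a4*+/- mice and 33.0 ± 1.69 TPM in wild-type mice. *Csad* averaged 25.3 ± 1.15 TPM in *Slc13a4*+/- mice and 25.7 ± 1.74 TPM in wild-type mice, and *Cbs* averaged 21.7 ± 0.78 TPM in *Slc13a4*+/- mice and 22.1 ± 2.06 TPM in wild-type mice.

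Below these came a gap. *Ethe1* averaged 11.3 ± 0.48 TPM in *Slc13a4*+/- mice and 11.7 ± 0.54 TPM in wild-type mice, and *Suox* averaged 9.25 ± 0.57 TPM in *Slc13a4*+/- mice and 8.95 ± 0.14 TPM in wild-type mice. The lowest per-length levels belonged to *Sqor*, with 5.32 ± 0.14 TPM in *Slc13a4*+/- mice and 6.81 ± 0.92 TPM in wild-type mice, and to *Cth*, with 5.29 ± 0.48 TPM in *Slc13a4*+/- mice and 5.01 ± 0.63 TPM in wild-type mice. They stood at percentiles 33.7 and 31.6 among tested genes. In all, 4 neighbouring pairs of this order could not be separated by their ranges over the 6 mice, namely *Ado* and *Cdo1*, *Mpst* and *Tst*, *Csad* and *Cbs*, and *Sqor* and *Cth*, although in each pair the first gene was higher within 5 of 6 mice. The other steps of the order held in every mouse. Per length, *Cbs* was thus above *Cth*, the next step of transsulfuration, and *Cdo1* above *Csad*, the next step of the taurine route, in all 6 mice.

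**Figure D2:**
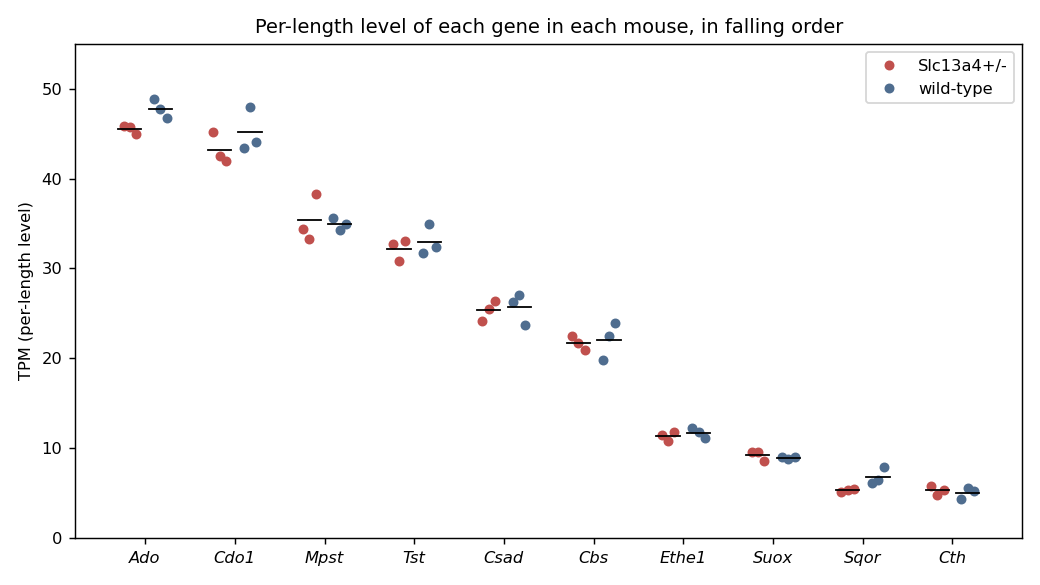
Per-length level of the 10 genes (TPM, vertical axis from 0) in falling order of the mean over 6 mice. Points are mice, *Slc13a4*+/- left and wild-type right within each gene, and bars are genotype means of 3 mice. *Ado* and *Cdo1* stand between 42.0 and 48.9 TPM, and *Sqor* and *Cth* between 4.30 and 7.85 TPM.

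Summed by route, the taurine branch (*Cdo1*, *Csad*, *Ado*) held 114 ± 0.91 TPM in *Slc13a4*+/- mice and 119 ± 4.12 TPM in wild-type mice, or 47.89 to 49.42% of the summed level of the 10 genes in *Slc13a4*+/- mice and 47.92 to 49.96% in wild-type mice. The sulfide and sulfite branch (*Mpst*, *Sqor*, *Ethe1*, *Tst*, *Suox*) held 93.5 ± 3.61 TPM in *Slc13a4*+/- mice and 95.4 ± 0.77 TPM in wild-type mice. Transsulfuration (*Cbs*, *Cth*) held 27.0 ± 1.07 TPM in *Slc13a4*+/- mice and 27.1 ± 2.61 TPM in wild-type mice. The ranges of summed TPM overlapped between the genotypes for all 3 branches. In summed CPM, which long transcripts weigh on more, the taurine branch was apart, with 137.5 to 143.0 in *Slc13a4*+/- mice and 143.8 to 150.7 in wild-type mice, and *Ado* made up most of it. The other branches overlapped in summed CPM too.

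*Cbs* (chromosome 17, GRCm38) encodes cystathionine beta-synthase, which joins homocysteine and serine and commits homocysteine to transsulfuration. Its CPM were 27.3, 26.0 and 24.3 in *Slc13a4*+/- mice, against 24.6, 27.1 and 28.6 in wild-type mice. The groups overlapped, although Nas2Del_WT_1026 lay above every *Slc13a4*+/- mouse. The log2 fold change of -0.050 (SE 0.064, edgeR adjusted p = 0.830) had a 95% interval of -12.7 to 6.91%. Intervals are given here and below as a percent difference from the wild-type level. *Cth* (chromosome 3) encodes cystathionine gamma-lyase, which cleaves cystathionine to cysteine. It had 4.47, 3.75 and 4.02 CPM in *Slc13a4*+/- mice, against 3.40, 4.30 and 4.13 CPM in wild-type mice, again with overlap. Its log2 fold change was 0.051 (SE 0.115, edgeR adjusted p = 0.918). With 226 to 347 counts per mouse it was among the shallowest of the set and had the widest upper limit, -13.6 to 24.2%.

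Most *Cbs* counts came from 3 coding transcripts, of which Cbs-201 and Cbs-202 differ in a short coding exon near the 3' end. This exon is shown because it separates Cbs-201 from the main forebrain transcript, Cbs-202. Cbs-201 carries the exon, and Cbs-202 joins the exons around it. Cbs-211 has 17 exons, as Cbs-201 does, and a 3' end that runs farther, to 31608894. It was summed with Cbs-201, and its exons were not compared one by one here. Exon 16 of 17 of Cbs-201 lies at chr17:31614529-31614570 on the minus strand of GRCm38 and is 42 bases, or 14 codons, long. The exon and the 30 bases across the junction of Cbs-202 (capitals mark the first 15 bases after the junction) read as follows, and the junction run is not found in Cbs-201.
Cbs exon 16: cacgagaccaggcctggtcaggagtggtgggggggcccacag
Cbs-202 junction: acgagcagatccaatACTGCAGCAATGGCA

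Cbs-202 without the exon held 64.4, 56.2 and 65.5% of the gene's estimated counts in *Slc13a4*+/- mice, against 70.6, 64.0 and 69.8% in wild-type mice. Cbs-201 and Cbs-211 together held 32.3, 38.7 and 30.6% in *Slc13a4*+/- mice, against 28.1, 32.9 and 28.1% in wild-type mice. Both measures overlapped between the genotypes. With only Cbs-202 counted for the gene, a choice made after seeing the data, the log2 fold change was -0.18 in place of -0.050 (edgeR unadjusted p = 0.0493, adjusted p = 0.545). The retained-intron transcript Cbs-210, picked out after its values were seen, held 1.72, 2.23 and 2.37% of the gene's counts in *Slc13a4*+/- mice (36.4, 40.0 and 43.1 estimated counts), against 0.67, 0.74 and 0.71% in wild-type mice (11.0, 12.1 and 15.9 estimated counts). The groups were apart, on few counts, and how often such rare transcripts were apart over all genes was not computed. The other retained-intron transcript of the gene, Cbs-207, held 1.73 ± 0.84% of its counts in *Slc13a4*+/- mice and 1.2 ± 0.6% in wild-type mice (SD, n = 3 each), with overlap. Retained-intron transcripts of all genes held 2.017, 2.438 and 2.140% of the library in *Slc13a4*+/- mice and 1.849, 2.004 and 1.796% in wild-type mice, also apart, and the part of this in the Cbs-210 share was not tested.

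*Cdo1* (chromosome 18) encodes cysteine dioxygenase, which oxidises cysteine to cysteine sulfinate and opens the taurine route. It had 30.7, 28.7 and 28.0 CPM in *Slc13a4*+/- mice, against 30.3, 31.7 and 30.3 CPM in wild-type mice. Nas2Del_Het_1024 lay within the wild-type range and the other 2 below it, with a log2 fold change of -0.076 (SE 0.045, edgeR adjusted p = 0.635) and a 95% interval of -11.7 to 1.90%.

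*Csad* (chromosome 15) encodes cysteine sulfinic acid decarboxylase, which forms hypotaurine. Its CPM were 15.1, 14.9 and 15.7 in *Slc13a4*+/- mice, against 15.5, 15.1 and 14.5 in wild-type mice, with overlap. Its log2 fold change was 0.021 (SE 0.049, edgeR adjusted p = 0.920), with a 95% interval of -6.04 to 9.55%, and it was -0.049 in DESeq2 with length offsets (adjusted p = 0.992). The sign for *Csad* thus turned when transcript length entered the fit.

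Of the *Csad* transcripts that held at least 10% of the gene's counts, Csad-211 was the one whose share was apart between the genotypes. Of its 23 annotated transcripts, Csad-201 held most counts and Csad-211 came next. Csad-211 lacks a coding exon, the penultimate exon (14 of 15) of Csad-201, which lies at chr15:102178527-102178616 on the minus strand of GRCm38 and is 90 bases, or 30 codons, long. The exon and the junction that replaces it are shown because these letters tell the transcripts apart. In the junction, capitals mark the first 15 bases after it, and the run is not found in Csad-201.
Csad exon 14: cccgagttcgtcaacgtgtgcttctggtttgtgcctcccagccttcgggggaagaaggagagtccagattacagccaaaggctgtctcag
Csad-211 junction: gagttggtaatggagGTGGCCCCTGTGCTC

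Both exons, in *Cbs* and in *Csad*, are whole numbers of codons, so their loss keeps the reading frame. Csad-211 held 27.1, 25.3 and 22.5% of the counts of *Csad* in *Slc13a4*+/- mice, against 18.8, 22.0 and 18.0% in wild-type mice. The means were 24.96 ± 2.31% in *Slc13a4*+/- mice and 19.6 ± 2.12% in wild-type mice, a difference of 5.38 percentage points. The lowest *Slc13a4*+/- share was close to the highest wild-type share, and the groups did not overlap. In estimated counts Csad-211 had 316.6, 261.1 and 264.1 in *Slc13a4*+/- mice, against 193.9, 200.3 and 202.6 in wild-type mice. Csad-201, which includes the exon, held 54.95, 52.87 and 53.98% in *Slc13a4*+/- mice, against 56.21, 52.91 and 60.40% in wild-type mice, with overlap. Salmon's division of reads among the *Csad* transcripts varied within a genotype. Csad-222 had 0, 20.5 and 78.1 estimated counts in *Slc13a4*+/- mice, against 39.6, 0 and 114.9 in wild-type mice. The part of this division in the Csad-211 share was not tested. Among rarer transcripts, picked out after their values were seen, Csad-218 had 30.2, 28.7 and 27.0 estimated counts in *Slc13a4*+/- mice, against 18.8, 9.9 and 9.1 in wild-type mice. Csad-219 had 8.7, 0 and 8.7 estimated counts in *Slc13a4*+/- mice, against 30.4, 24.2 and 20.1 in wild-type mice. Csad-209 had 13.9, 10.1 and 10.8 estimated counts in *Slc13a4*+/- mice, against 6.8, 0 and 0 in wild-type mice. These counts, not scaled to library size, were apart as well, with Csad-219 in the opposite direction to the others. How often transcripts under 10% of their gene were apart over all genes was not computed.

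Across the set, 8 transcripts of 4 genes held between 10 and 98% of their gene's counts and were compared in the same way. The shares of 2 of them, Csad-211 and Mpst-204, did not overlap between genotypes, both higher in *Slc13a4*+/- mice (exact two-sided permutation p = 0.1, the smallest that 3 against 3 mice can give). Of the 22243 transcripts with such a share in all tested genes, 5.15% were higher and 7.8% lower without overlap, and the 2 of 8 were not tested against these shares. None of the 8 could pass a threshold of 0.05 in this design. The remaining 6 had permutation p-values of 0.2 to 0.5. *Ado*, *Ethe1* and *Suox* have 1 annotated transcript each in the files, so no such comparison exists for them.

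**Figure D3:**
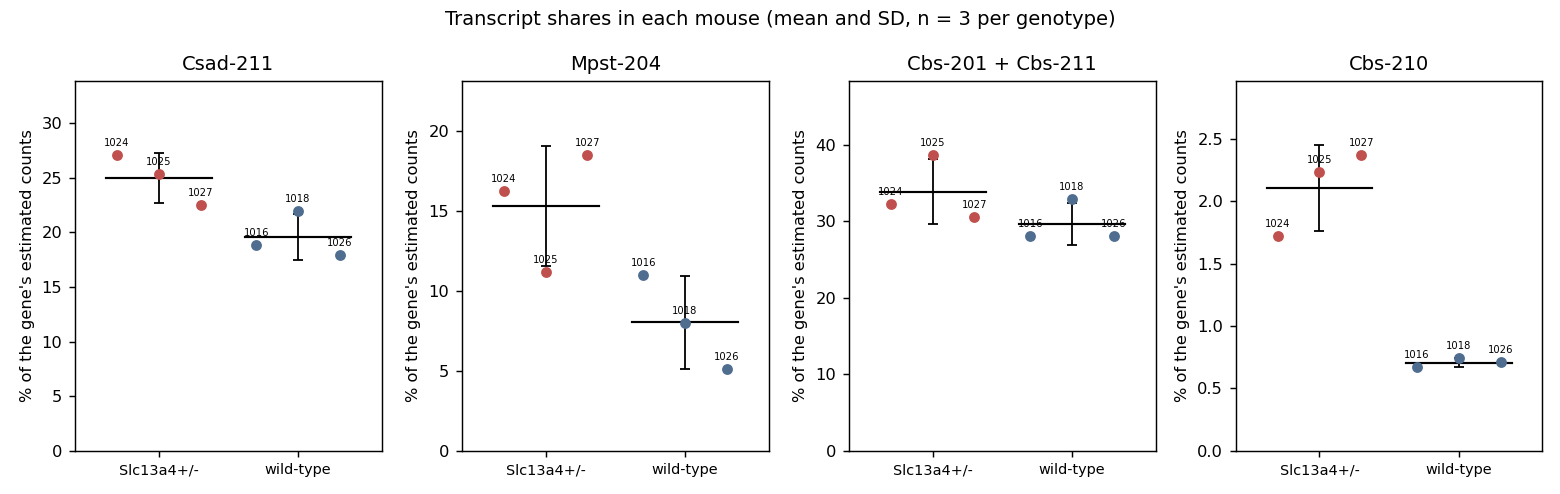
Share of the gene's estimated counts (percent, vertical axes from 0) held by Csad-211, Mpst-204, Cbs-201 and Cbs-211 together, and the retained-intron transcript Cbs-210, in each mouse, *Slc13a4*+/- left and wild-type right. Points are mice, long bars means and error bars SDs of 3 mice. Csad-211 lies between 22.5 and 27.1% in *Slc13a4*+/- mice and between 18.0 and 22.0% in wild-type mice, while the sum of Cbs-201 and Cbs-211 overlaps.

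*Ado* (chromosome 10) encodes cysteamine dioxygenase, which forms hypotaurine from cysteamine and also oxidises cysteine at the start of certain proteins. It had 97.2, 96.0 and 93.9 CPM in *Slc13a4*+/- mice, against 105, 102 and 99.1 CPM in wild-type mice. All 3 *Slc13a4*+/- mice lay below all 3 wild-type mice, also in TPM (45.8, 45.7 and 45.0 in *Slc13a4*+/- mice, against 48.9, 47.8 and 46.7 in wild-type mice). Its estimated log2 fold change of -0.094 had an SE of 0.038, and the 95% interval ran from -11.8 to -0.55% (edgeR unadjusted p = 0.0357, adjusted p = 0.530). DESeq2 gave -0.100 (unadjusted p = 0.0351, adjusted p = 0.670). *Ado* was the deepest gene of the set, with 6195 to 7726 counts per mouse. Leaving out Nas2Del_WT_1026 brought the edgeR adjusted p to 0.147 and that of DESeq2 to 0.103. The DESeq2 setting was chosen after seeing the data, and its value was the smallest adjusted p of any member under any setting.

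*Mpst* and *Tst* encode the sulfurtransferases of the set and are close neighbours on chromosome 15. *Mpst* (mercaptopyruvate sulfurtransferase, 78406416 to 78414013, plus strand) takes sulfur from mercaptopyruvate to form persulfides and sulfide. *Tst* (rhodanese, 78399556 to 78405907, minus strand) moves sulfur between thiosulfate and acceptors such as cyanide or glutathione. The genes point away from each other with 508 bases between them. The libraries were stranded, and the longest exact run shared by their main transcripts was 18 bases, shorter than the 31-base words by which transcripts of different genes were compared here.

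*Mpst* had 18.2, 17.4 and 18.3 CPM in *Slc13a4*+/- mice, against 18.7, 18.3 and 18.0 CPM in wild-type mice. The groups overlapped, and the log2 fold change was -0.029 (SE 0.043, 95% interval -8.37 to 4.86%, edgeR adjusted p = 0.854). *Tst* had 15.8, 14.7 and 15.6 CPM in *Slc13a4*+/- mice, against 15.4, 17.1 and 15.5 CPM in wild-type mice. The highest value, in Nas2Del_WT_1018, stood apart from 5 mice that lay close together. The log2 fold change of *Tst* was -0.058 (SE 0.057, 95% interval -12.2 to 5.16%, edgeR adjusted p = 0.778), and -0.01 without that mouse.

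Mpst-204 starts at 78409982, downstream of the first exon of the main transcript Mpst-202 (which starts at 78406712). It has 61 bases of its own directly ahead of the shared second exon, in a stretch that is intron in Mpst-202. Unspliced RNA was not separated from Mpst-204 there, and its part in the share was not tested. It held 16.3, 11.2 and 18.5% of the counts of *Mpst* in *Slc13a4*+/- mice, against 11.0, 8.02 and 5.12% in wild-type mice. The means were 15.3 ± 3.76% in *Slc13a4*+/- mice and 8.04 ± 2.93% in wild-type mice. The groups were apart by a fraction of a percentage point, between Nas2Del_Het_1025 and Nas2Del_WT_1016. Mpst-202 held 77.6, 76.6 and 69.0% in *Slc13a4*+/- mice, against 76.3, 77.2 and 86.1% in wild-type mice, with overlap. The division of reads among the *Mpst* transcripts also varied within a genotype. Mpst-203 had 11.2, 63.2 and 0 estimated counts in *Slc13a4*+/- mice, against 50.2, 76.0 and 30.1 in wild-type mice. Mpst-206 had 60.0 in Nas2Del_Het_1027 and 0 in every other mouse. The part of this division in the Mpst-204 share was not tested.

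*Sqor* (chromosome 2) encodes the sulfide:quinone oxidoreductase of the inner mitochondrial membrane, which oxidises hydrogen sulfide to a persulfide. It had 4.04, 4.15 and 4.02 CPM in *Slc13a4*+/- mice, against 4.51, 4.5 and 4.81 CPM in wild-type mice. The groups did not overlap. The *Slc13a4*+/- mice were close together and the highest value was that of Nas2Del_WT_1026. Its estimated log2 fold change of -0.18 had an SE of 0.076, with a 95% interval from -21.6 to -0.31% (edgeR unadjusted p = 0.0455, adjusted p = 0.542). This was the largest difference of the 10, on 272 to 375 counts per mouse.

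The size of the *Sqor* difference depended on transcript length. DESeq2 with length offsets gave a log2 fold change of -0.39 (adjusted p = 0.450), and edgeR with the same offsets gave -0.38 (adjusted p = 0.576). In TPM the gene had 5.16, 5.38 and 5.42 in *Slc13a4*+/- mice, against 6.13, 6.43 and 7.85 in wild-type mice. The high value of Nas2Del_WT_1026 included 1.78 TPM of Sqor-206, a noncoding transcript of 467 bases that got 21.1 estimated counts there and 0 in the other 5 mice. In Nas2Del_WT_1018, 1.002 TPM came from Sqor-203, which is 429 bases long and had 8.2 estimated counts. The main transcript Sqor-201 alone, which held most of the gene's counts, had 4.89, 4.97 and 4.96 TPM in *Slc13a4*+/- mice, against 5.31, 5.36 and 5.49 TPM in wild-type mice. On this transcript the groups were still apart, and its edgeR log2 fold change was -0.15 (adjusted p = 0.587), in a setting added after seeing the data.

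**Figure D4:**
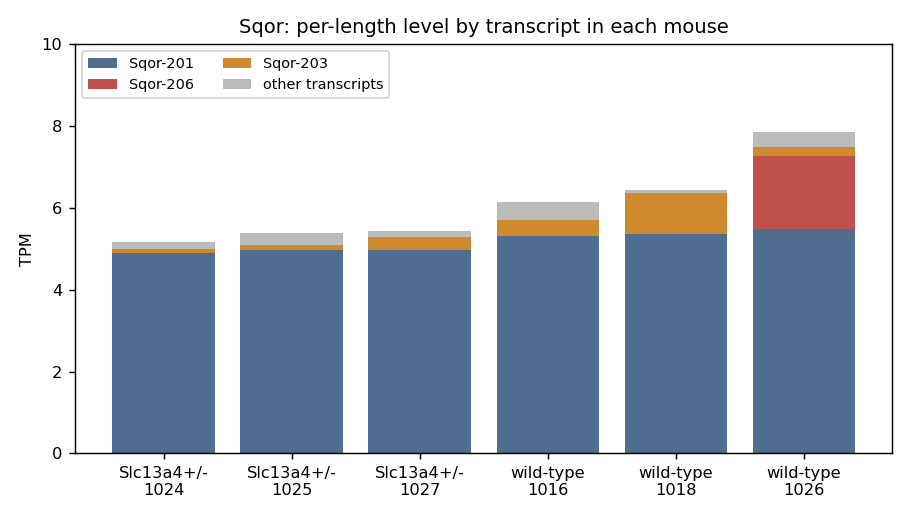
Per-length level of *Sqor* (TPM, vertical axis from 0) in each mouse, stacked by transcript, with the *Slc13a4*+/- mice left and the wild-type mice right. The main transcript Sqor-201 lies between 4.89 and 4.97 TPM in *Slc13a4*+/- mice and between 5.31 and 5.49 TPM in wild-type mice, and the short transcripts Sqor-206 (Nas2Del_WT_1026) and Sqor-203 (Nas2Del_WT_1018) make up most of the rest in those 2 mice.

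*Ethe1* (chromosome 7) encodes the mitochondrial persulfide dioxygenase, which oxidises glutathione persulfide to sulfite. Its CPM were 7.33, 6.89 and 7.42 in *Slc13a4*+/- mice, against 7.93, 7.64 and 7.15 in wild-type mice. The groups overlapped through Nas2Del_WT_1026, the lowest wild-type value. Its log2 fold change was -0.070 (SE 0.069, 95% interval -14.6 to 6.22%, edgeR adjusted p = 0.777).

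*Suox* (chromosome 10) encodes sulfite oxidase, the molybdenum enzyme of the mitochondrial intermembrane space that makes sulfate from sulfite and thus carries out the last step of endogenous sulfate release. It had 10.80, 10.72 and 9.53 CPM in *Slc13a4*+/- mice, against 10.31, 10.04 and 10.21 CPM in wild-type mice. The wild-type values lay inside the range of the *Slc13a4*+/- values, 2 of which were above and 1 below. The log2 fold change of 0.023 (SE 0.065, edgeR adjusted p = 0.937) had a 95% interval of -8.36 to 12.7%, and the sign turned when Nas2Del_Het_1024 or Nas2Del_Het_1025 was left out (-0.006 and -0.002).

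**Figure D5:**
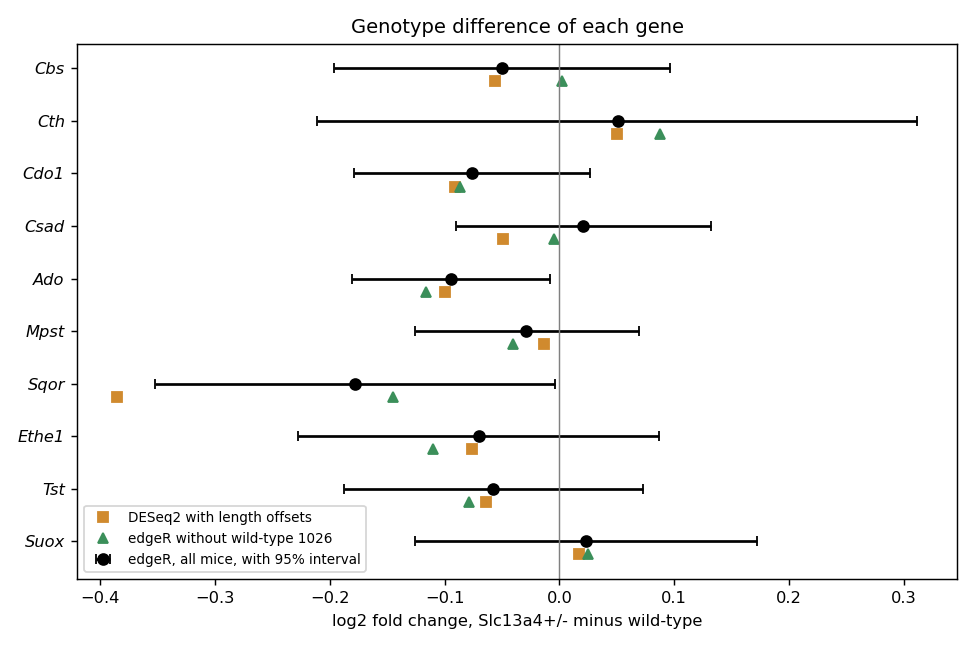
Log2 fold change of each gene, *Slc13a4*+/- over wild-type (horizontal axis, 0 meaning equal levels). Circles with bars are the edgeR estimates over all 6 mice with their 95% intervals, squares are DESeq2 estimates with length offsets, and triangles are edgeR estimates without Nas2Del_WT_1026. The intervals of 8 genes include 0, those of *Ado* and *Sqor* end just below it, and *Sqor* is the gene where the DESeq2 estimate (-0.39) lies outside the edgeR interval.

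Taken gene by gene, the 95% intervals reached no lower than -21.6% (*Sqor*) and no higher than 24.2% (*Cth*) relative to the wild-type level. They were narrowest for *Cdo1*, *Csad*, *Ado* and *Mpst*, within -11.8 and 9.55%. These intervals cover each gene by itself and are not adjusted for the number of genes. RNA levels alone were measured, and neither enzyme activity nor sulfate was.

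Sums of 3 cell type marker lists were apart between the genotypes, as *Ado* and *Sqor* were. The summed CPM of 6 microglial markers was 356 to 369 in *Slc13a4*+/- mice and 382 to 391 in wild-type mice, with 6 of 6 log2 fold changes below 0. That of 5 endothelial markers was 168 to 180 in *Slc13a4*+/- mice and 185 to 196 in wild-type mice, with 4 of 5 below 0. That of 6 choroid plexus markers was 387 to 450 in *Slc13a4*+/- mice and 468 to 474 in wild-type mice, with 6 of 6 below 0. These 3 sums did not overlap between genotypes. Of single genes tested, 7.7% were lower without overlap, and no such share was computed for sums of lists. The part of these 3 sums in the differences of *Ado* and *Sqor* was not tested. Markers of neurons (5272 to 5412 in *Slc13a4*+/- mice and 5170 to 5508 in wild-type mice), astrocytes (5421 to 5515 in *Slc13a4*+/- mice and 5335 to 5942 in wild-type mice) and oligodendrocytes (8012 to 9337 in *Slc13a4*+/- mice and 9087 to 10124 in wild-type mice) overlapped, and so did those of oligodendrocyte precursors, mural cells, meningeal fibroblasts, ependyma and erythroid cells. Log2 fold changes nevertheless lay below 0 for 6 of 6 oligodendrocyte, 4 of 4 ependymal, 5 of 5 erythroid, 4 of 5 mural and 6 of 8 astrocyte markers, against 1 of 3 for precursors, 3 of 6 for meningeal fibroblasts and 3 of 7 for neurons. The ependymal sum was 15.2 to 18.1 CPM in *Slc13a4*+/- mice and 17.9 to 19.9 CPM in wild-type mice, and the mural sum was 171.4 to 184.0 CPM in *Slc13a4*+/- mice and 183.0 to 195.8 CPM in wild-type mice. Markers lower at an unadjusted p under 0.05 in edgeR (4.17% of all genes) were 3 of 5 endothelial, 3 of 8 astrocyte and 2 of 5 mural ones. So were 2 of 6 each for microglia, choroid plexus and oligodendrocytes, 1 of 3 for precursors and 1 of 4 for ependyma. A higher one was found only for meningeal fibroblasts (1 of 6). DESeq2 called 1 astrocyte and 1 choroid plexus marker, and edgeR called none. No marker was at 0 in all mice, and the neuronal and glial markers of a forebrain sample were present in every library.

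The other genes of sulfur metabolism were read from 6 lists with 46 genes, 44 of which were tested. Neither edgeR nor DESeq2 called any of them. At an unadjusted p under 0.05 in edgeR, 3 were higher in *Slc13a4*+/- mice and none was lower. By that rule 4.98% of all genes tested were higher and 4.17% lower, and the 3 of 44 were not tested against these shares. In DESeq2, 4 genes had such a p. The median log2 fold change in edgeR was 0.017 (26 above 0 and 18 below). The 3 higher genes included *Mat2a* and *Fmo1*.

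The methionine cycle feeds homocysteine to *Cbs*. Of its 11 tested genes 2 were higher at an unadjusted p under 0.05 in edgeR (4.98% of all genes tested), with a list median of 0.021. *Mat2a*, which makes S-adenosylmethionine, had 137, 135 and 141 CPM in *Slc13a4*+/- mice, against 124, 136 and 118 CPM in wild-type mice, with overlap (log2 fold change 0.13, SE 0.055, edgeR adjusted p = 0.542).

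Around the taurine branch, 7 genes were tested with a median of 0.10. *Fmo1*, a flavin monooxygenase that can oxidise hypotaurine to taurine, had 8.91, 9.49 and 8.93 CPM in *Slc13a4*+/- mice, against 8.29, 7.54 and 8.01 CPM in wild-type mice. The groups were apart (log2 fold change 0.20, SE 0.065, edgeR unadjusted p = 0.0151, adjusted p = 0.499). The share of all genes tested that were higher without overlap is not given here, and 7.7% were lower without overlap. *Slc6a6*, the taurine transporter of the plasma membrane, is named after its values were seen, since its call turned on 1 library. It had 138, 136 and 139 CPM in *Slc13a4*+/- mice, against 123, 122 and 140 CPM in wild-type mice, and Nas2Del_WT_1026 was the highest of all 6. Over all mice its log2 fold change was 0.10 (SE 0.056, edgeR adjusted p = 0.621). Without Nas2Del_WT_1026 it was 0.17 (edgeR adjusted p = 0.0916), past the threshold, in a fit that called 223 genes in all in place of 1.

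The remaining lists held no gene with an unadjusted p under 0.05, and the gene with the smallest p of each is given. Cystine and cysteine uptake (6 tested, median -0.037) was led by *Slc1a1*, the neuronal glutamate transporter that also takes up cysteine, with 169, 166 and 170 CPM in *Slc13a4*+/- mice, against 179, 170 and 174 CPM in wild-type mice (edgeR unadjusted p = 0.204). Summed over that list, *Slc13a4*+/- mice had 447.3 to 458.4 CPM and wild-type mice 458.5 to 466.4 CPM, apart by less than 1 CPM. The aminotransferases that act on cysteine or its sulfinate (5 tested, median 0.095) were led by *Aadat* at 0.21, 0.20 and 0.15 CPM in *Slc13a4*+/- mice, against 0.12, 0.08 and 0.13 CPM in wild-type mice (unadjusted p = 0.0663 in edgeR), a level too low to read a size from.

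Sulfide and persulfide handling (8 tested, median -0.011) was led by *Txn2*, mitochondrial thioredoxin, with 47.4, 49.6 and 49.2 CPM in *Slc13a4*+/- mice, against 49.2, 55.1 and 53.2 CPM in wild-type mice (log2 fold change -0.11, unadjusted p = 0.0576 in edgeR). Synthesis and use of the molybdenum cofactor that *Suox* needs (7 tested, median 0.081) was led by *Mocs1*, which catalyses the first step of that synthesis, with 4.74, 4.74 and 4.49 CPM in *Slc13a4*+/- mice, against 4.0, 3.97 and 4.95 CPM in wild-type mice (unadjusted p = 0.313 in edgeR). In both of these genes the groups overlapped.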

How the data were processed

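Paired-end RNA-Seq (76 bases, stranded, rRNA-depleted) came from the forebrain of 6 mice, 3 of each genotype. The authors quantified transcripts with Salmon 1.2.0 (mapping validation, GC bias correction) and deposited expected counts, which need not be whole. TPM, also deposited, were scaled by the authors for effective transcript length. The index's transcripts and build were not given in the sources used here. Identifiers without version were matched to GENCODE M21 (GRCm38) for 115973 of 117135 transcripts. The 1162 unmatched ones took up to 0.645% of a library and were not used. The files give Ado-201 a length of 4558 bases and the annotation 4445, so the index may be of another release.

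Expected counts were summed per gene, rounded and tested with edgeR 4.0.16 (R 4.3.3, quasi-likelihood, default count filter, TMM, adjusted p under 0.1). DESeq2 1.42.0 with average transcript lengths as offsets was run beside it, near the study's own test. Totals were 60340337 to 80410582, and rounding, read assignment and counting limit low genes. Transcript shares of deposited counts were compared by exact permutation tests, and levels summed from TPM were described. Share of 31-base words found in other genes was at most 0.34% (*Ado*).

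All 10 members are named. Of other lists, genes with an unadjusted p under 0.05 in edgeR or an adjusted p under 0.1 in DESeq2 are named, or else the gene with the smallest p, and 1 gene that meets this rule is not reported here. Members and lists were chosen with earlier results of these data known. Alternatives were tools, normalization, filters, transcript classes, left-out mice and the run of animal numbers (Nas2Del_WT_1016 and Nas2Del_WT_1018 against the other 4). All *Slc13a4*+/- mice fell in the same run as Nas2Del_WT_1026, so genotype and run were partly confounded. What the runs stand for is not given. Controls are described as littermates, but litters are not given, so litter was not modelled. The p-values set the genotype difference against the spread between mice. No library was a copy of another, since counts differed between all mice beyond sampling noise.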

Additional observations from a re-analysis of the deposited data

How the results depend on the processing

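No member was called in any of the 17 alternative settings, and 154 of the 170 member values kept their direction (*Sqor* got no adjusted p in DESeq2 without Nas2Del_WT_1026). *Ado*, *Cdo1*, *Sqor* and *Tst* stayed below 0 in all of them. Signs turned for *Cth* with the run of animal numbers as covariate (-0.016), for *Csad* with length offsets (-0.049 in DESeq2, -0.048 in edgeR) or the main transcript only (-0.046), for *Ethe1* (0.012), *Mocs1* (-0.088) and *Slc6a6* (-0.028) with that covariate, which leaves Nas2Del_WT_1026 alone against the *Slc13a4*+/- mice and assumes that it varies like them. With each mouse left out in edgeR, and Nas2Del_WT_1016 or Nas2Del_WT_1026 alone left out in DESeq2, log2 fold changes ran from -0.125 to 0.002 for *Cbs* (-0.102 to 0.002 in edgeR, -0.125 and 0.001 in DESeq2), -0.045 to 0.115 for *Cth*, -0.109 to 0.049 for *Csad* (-0.005 to 0.049 in edgeR, -0.109 and -0.03 in DESeq2), -0.04 to 0.003 for *Mpst* and -0.006 to 0.082 for *Suox*. In edgeR alone they ran from -0.116 to -0.07 for *Ado* (highest without Nas2Del_WT_1016), -0.195 to -0.145 for *Sqor*, -0.113 to -0.045 for *Cdo1* (highest without Nas2Del_Het_1027), -0.11 to -0.031 for *Ethe1* (highest without Nas2Del_WT_1016), -0.079 to -0.01 for *Tst* (highest without Nas2Del_WT_1018) and 0.079 to 0.184 for *Mat2a* (lowest without Nas2Del_WT_1026). For *Sqor* the DESeq2 values were wider apart, at -0.454 without Nas2Del_WT_1016 and -0.274 without Nas2Del_WT_1026, against -0.385 over all mice. The cause of these shifts was not tested.

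Genes called over the whole table numbered 86 with DESeq2 and length offsets, 55 without offsets, 0 with edgeR and length offsets, 147 without a count filter and 143 with the covariate. With a mouse left out they ranged from 1 to 720. EdgeR gave 223 without Nas2Del_WT_1026, 5 without Nas2Del_WT_1016 and 2 without Nas2Del_WT_1018 or Nas2Del_Het_1024, and DESeq2 gave 720 without Nas2Del_WT_1026 and 34 without Nas2Del_WT_1016 (both added after seeing the data). Of the other sulfur genes 0 to 2 were then called, with *Slc6a6* (0.20, adjusted p = 0.00268) among the 2 in DESeq2 without Nas2Del_WT_1026. The per-length level of *Csad* over 6 mice was 21.3 TPM on coding transcripts alone, against 25.5 TPM on all. No paired analysis was possible because the genotypes share no replicate number and litters are not given. The low counts of *Cth* and *Sqor* limit their precision.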
